A study of Homo sapiens with 4 samples.

Results

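The miRNAs described here are 10 mature products of 7 hairpins: hsa-miR-651-5p and hsa-miR-651-3p, hsa-miR-3144-3p and hsa-miR-3144-5p, hsa-miR-6500-3p, hsa-miR-4421, hsa-miR-1269a, hsa-miR-1269b, and hsa-miR-576-3p and hsa-miR-576-5p, where hsa marks the human miRNA and is left out below. They are lesser known miRNAs, described as mostly primate-specific, that were picked by name because they had higher counts in CAG than in PGK libraries, together with their other arms. They are 10 of the 2656 mature miRNAs counted. All 10 had a read somewhere and 9 passed the low-count filter and were tested; miR-651-3p did not pass. Because the contrast of CAG with PGK chose them, their differences are given as a description and nothing is read from their tests.

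The CAG group was 2 small RNA libraries from HEK293T cells with a landing pad, an engineered genomic site that receives a transgene, containing the synthetic CAG promoter. The PGK group was 2 libraries from HEK293T cells whose landing pad contained the promoter of the phosphoglycerate kinase gene (PGK). HEK293T is a human embryonic kidney line with the SV40 large T antigen, and both groups share that background. The lines were monoclonal, and the number of clones behind each group was not given in the sources used here, so promoter and clone cannot be told apart. Nothing says that the replicates were separate cultures, and p-values then measure only the spread between these libraries.

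A miRNA is cut by Drosha and then Dicer from a hairpin in a longer transcript, and either arm of the hairpin can be loaded into an Argonaute protein. The loaded strand finds messenger RNAs mainly through its seed, bases 2 to 8 from the 5′ end, so miRNAs with the same seed share many predicted targets while the arms of one hairpin usually do not. Hairpins that lie in an intron on the strand of the host gene are often made from the host's transcript, and intergenic hairpins have transcripts of their own.

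The 10 mature sequences, with the seed in capitals and all written 5′ to 3′, show which members could share targets or reads (RefSeq, GRCh38.p14; all 10 were matched by name).
miR-651-5p: uUUAGGAUaagcuugacuuuug
miR-651-3p: aAAGGAAAguguauccuaaaag
miR-3144-3p: aUAUACCUguucggucucuuua
miR-3144-5p: aGGGGACCaaagagauauauag
miR-6500-3p: aCACUUGUugggaugaccugc
miR-4421: aCCUGUCUguggaaaggagcua
miR-1269a: cUGGACUGagccgugcuacugg
miR-1269b: cUGGACUGagccaugcuacugg
miR-576-3p: aAGAUGUGgaaaaauuggaauc
miR-576-5p: aUUCUAAUuucuccacgucuuu

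These sequences hold 9 different seeds, since miR-1269a and miR-1269b share UGGACUG. They differ at 1 of 22 bases, G13A, where the base of miR-1269a comes first and positions count from 1 at the 5′ end, so the difference lies outside the seed. Each of the 10 sequences was found without mismatch in only 1 RefSeq hairpin. GC content ran from 31.8% for both arms of miR-651 and of miR-576 to 63.6% for miR-1269a, around a median of 50% over the 686 of 773 tested miRNAs with a RefSeq sequence. Of the 9 tested members 6 begin with A and 1 with U, against 28.0% and 41.8% of those 686. Argonaute proteins prefer U or A at this base.

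Total counts were 13780279 and 2845945 in CAG replicates 1 and 2, and 7927615 and 7331437 in PGK replicates 1 and 2. Levels are in CPM, the field's usual unit for counts divided by library size, here after TMM normalisation. A single read equalled 0.0777 CPM in CAG replicate 1, sequenced deepest, but 0.324 CPM in CAG replicate 2, sequenced least. Markers of the labelled cell type were abundant: miR-10a-5p, miR-10b-5p, miR-196a-5p, miR-196b-5p and miR-615-3p, from the HOX clusters, summed to 122187 to 135114 CPM in CAG and 105460 to 109451 CPM in PGK libraries. Most of this sum was miR-10a-5p, with means of 88605 CPM in CAG and 73120 CPM in PGK libraries. miR-196a-5p went the other way, with means of 1508 CPM in CAG and 2115 CPM in PGK libraries. Markers of other cells were low for blood (4 miRNAs, at most 1.62 CPM summed, miR-223-3p at 0), liver (2, at most 2.65 CPM, miR-122-3p at 0) and pluripotent cells (7, at most 1.94 CPM, of which 3 at 0). The 3 mesenchymal markers summed to 9.72 to 14.4 CPM in CAG and 4.63 to 6.27 CPM in PGK libraries, with miR-214-3p at 0. The 3 muscle markers, nearly all miR-1-3p, summed to 15.6 to 16.8 CPM in CAG and 96.1 to 106 CPM in PGK libraries. The 2 brain markers, nearly all miR-9-5p, summed to 1767 to 2060 CPM in CAG and 3891 to 4089 CPM in PGK libraries. The part of these marker differences in the results was not tested.

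All 9 tested members had both CAG libraries above both PGK libraries, where 29.8% of all 773 tested miRNAs did, and all 9 were called higher in CAG cells by edgeR's quasi-likelihood test (adjusted p under 0.05), where 8.15% of tested miRNAs were. These counts restate how the members were chosen. Their log2 fold changes ran from 1.09 to 4.67 with a median of 1.90, beside a median of −0.0042 over all tested miRNAs. Summed, the 10 members held 0.261% and 0.298% of counts in CAG replicates 1 and 2, and 0.0908% and 0.0782% in PGK replicates 1 and 2. miR-1269b alone made up 52.5% to 59.9% of the members' reads in each library. In these bulk libraries more cells with a miRNA and more of it per cell cannot be told apart.

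**Figure D1:**
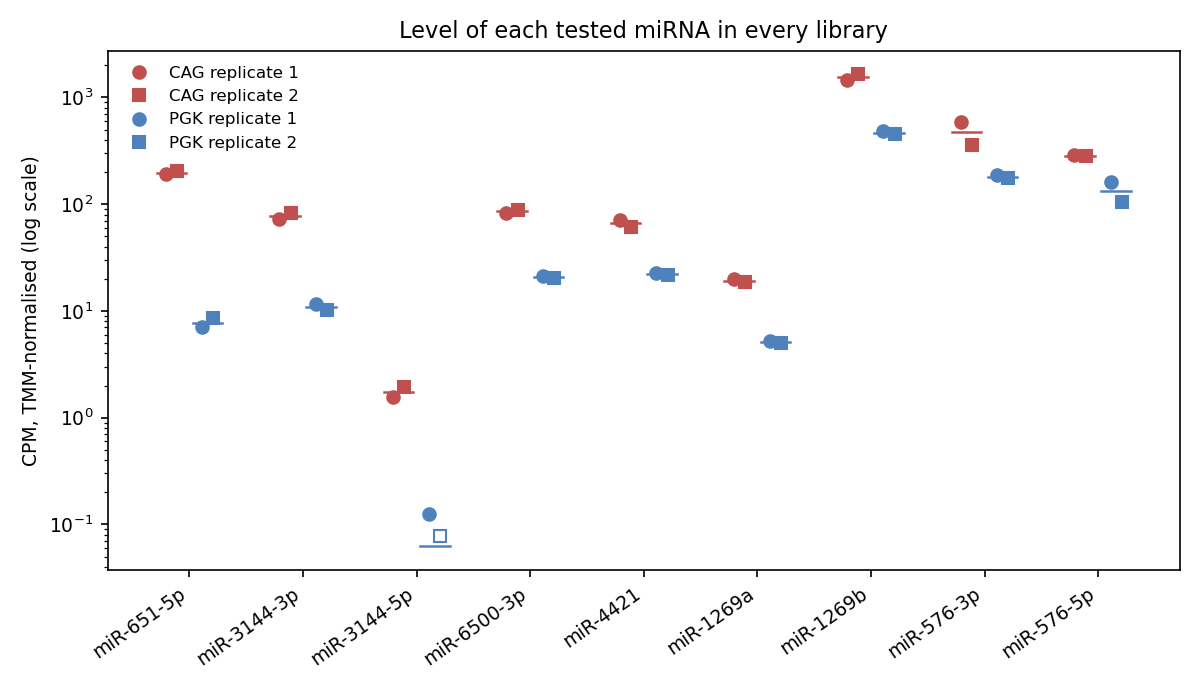
Level of the 9 tested members in every library, in TMM-normalised CPM on a log axis. Circles and squares are replicates 1 and 2, lines are group means, and the open square marks 0 reads drawn at the level of 1 read in the deepest library, so the group's mean line lies below it. CAG points lie above PGK points for each miRNA, and miR-1269b has the highest levels, 1466 and 1647 CPM in CAG libraries.

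miR-651-5p had the highest fitted log2 fold change of the members. It stood at 191 and 204 CPM in CAG replicates 1 and 2, against 7.01 and 8.51 CPM in PGK replicates 1 and 2. In reads this was 2454 and 629 in the CAG libraries, against 56 and 61 in the PGK libraries. The CAG libraries were close together and far above the PGK libraries, with means of 197 ± 9.40 CPM in CAG cells and 7.76 ± 1.06 CPM in PGK cells (SD, n = 2 each), a log2 fold change of 4.67 (SE 0.23). Its log2 fold change was the sixth highest of all tested miRNAs and stayed between 4.51 and 4.80 when 1 library was left out. The other arm, miR-651-3p, had a single read, in CAG replicate 2, and 0 reads in the other libraries, which allows up to 0.233 CPM in CAG replicate 1 and 0.375 and 0.418 CPM in PGK replicates 1 and 2. No fold is given for it. The 5p arm thus took 100% of the reads of this hairpin in 3 libraries and 99.8% in CAG replicate 2 (95% exact interval 99.1 to 100%). The lower limits were 99.8% in CAG replicate 1 but 93.6% and 94.1% in PGK replicates 1 and 2, with their 56 and 61 reads. Such intervals and limits describe counting error alone, since PCR copies of a molecule are counted as separate reads.

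MIR651 lies at chrX:8126965-8127061 on the plus strand. In GENCODE release 29 it is in an intron of AC097626.1, a long antisense RNA gene of the same strand that spans 8045186 to 8231386. The nearest protein-coding genes are VCX2, of an X-linked testis-expressed family, 42.9 kb to one side, and the lipase gene PNPLA4, 199 kb to the other. No other tested miRNA has a hairpin within 5 Mb of it.

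miR-3144 is made from an intergenic hairpin at chr6:120015179-120015257, plus strand, with the nearest coding genes, MAN1A1 and TBC1D32, 665 and 1064 kb away. Its main product was miR-3144-3p, at 73.2 and 83.3 CPM in CAG replicates 1 and 2, against 11.6 and 10.2 CPM in PGK replicates 1 and 2. The groups did not overlap, and the replicates of each lay within 1.14-fold of each other. Means were 78.2 ± 7.17 CPM in CAG cells and 10.9 ± 1.03 CPM in PGK cells (SD, n = 2 each), a log2 fold change of 2.83 (SE 0.23).

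miR-3144-5p was near the detection limit. It had 20 and 6 reads in CAG replicates 1 and 2, against 1 and 0 reads in PGK replicates 1 and 2, a pooled ratio of 24.7 with a 95% exact interval of 4.06 to 1013. Of the tested members it was the closest to the threshold of the call, with the highest adjusted p (0.0129, edgeR). That value comes from the contrast that chose the members, and miR-3144-5p passed the low-count filter only through the CAG libraries. The member miR-651-3p was not tested, since the low-count filter removed it. The 5p arm gave 2.08% (1.27 to 3.19%) and 2.28% (0.842 to 4.90%) of miR-3144 reads in CAG replicates 1 and 2, against 1.06% (0.0269 to 5.79%) and 0% (up to 4.93%) in PGK replicates 1 and 2. These exact intervals overlap, so a difference in arm use was not detectable at this depth, although the fitted fold changes of the arms differ by 1.51 on the log2 scale.

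miR-6500 and miR-4421 are neighbours. MIR4421 lies at chr1:51059837-51059905 and MIR6500 at chr1:51060018-51060103, both on the plus strand with 112 bases between them, outside any other annotated gene. The closest coding genes are C1orf185, 42.1 kb from MIR6500, and CDKN2C, which encodes a cyclin-dependent kinase inhibitor, 85.2 kb from MIR4421. The hairpins also resemble each other locally, although aligned over their whole length they matched at 50% of 96 positions. The 21 bases of miR-6500-3p, shown above, match the MIR4421 hairpin from its base 28 with 3 mismatches, U14C, G15A and C21U (the base of miR-6500-3p first, counted from its 5′ end), none of them in the seed. Most of that stretch lies 5′ of the mature miR-4421, which sits at chr1:51059879-51059900, and so is not miR-4421 sequence. The best ungapped match of miR-4421 in the MIR6500 hairpin had 11 mismatches in 22 bases. The rule by which the authors assigned reads that fit more than 1 entry was not given in the sources used here.

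miR-6500-3p stood at 83.6 and 88.2 CPM in CAG replicates 1 and 2, against 21.1 and 20.2 CPM in PGK replicates 1 and 2. Means were 85.9 ± 3.25 CPM in CAG cells and 20.7 ± 0.657 CPM in PGK cells (SD, n = 2 each), a log2 fold change of 2.05 (SE 0.21). miR-4421 stood at 71.7 and 61.6 CPM in CAG replicates 1 and 2, against 22.9 and 21.5 CPM in PGK replicates 1 and 2. Means were 66.6 ± 7.14 CPM in CAG cells and 22.2 ± 1.01 CPM in PGK cells (SD, n = 2 each), a log2 fold change of 1.60 (SE 0.22). Both neighbours thus lay between 61.6 and 88.2 CPM in CAG libraries and between 20.2 and 22.9 CPM in PGK libraries, with fitted folds of 4.14 for miR-6500-3p and 3.02 for miR-4421.

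The reads of miR-6500-3p for each read of miR-4421 were 1.17 and 1.43 in CAG replicates 1 and 2, against 0.923 and 0.942 in PGK replicates 1 and 2. miR-4421 made up 46.2% (95% exact interval 44.0 to 48.4%) and 41.1% (36.6 to 45.8%) of the reads of both in CAG replicates 1 and 2, against 52.0% (46.6 to 57.3%) and 51.5% (45.7 to 57.3%) in PGK replicates 1 and 2. The share was lower in both CAG libraries, but among the pairings of a CAG with a PGK library the intervals of CAG replicate 2 and PGK replicate 1 are the only ones that do not overlap. The 5p arm of MIR6500, which is not a member, had 0 reads in every library, beside 1348 reads of the 3p arm in the CAG group and 314 in the PGK group.

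miR-1269b was the most abundant member. It stood at 1466 and 1647 CPM in CAG replicates 1 and 2, against 484 and 452 CPM in PGK replicates 1 and 2, ranks 64 and 57 against 108 and 113. Means were 1556 ± 128 CPM in CAG cells and 468 ± 22.6 CPM in PGK cells (SD, n = 2 each), a log2 fold change of 1.73 (SE 0.18). The difference of the means, 1088 CPM, exceeded that of the other members. miR-1269a, which has been reported to promote metastasis of colorectal cancer cells, stood at 19.7 and 18.5 CPM in CAG replicates 1 and 2, against 5.26 and 5.02 CPM in PGK replicates 1 and 2. Means were 19.1 ± 0.884 CPM in CAG cells and 5.14 ± 0.167 CPM in PGK cells (SD, n = 2 each), a log2 fold change of 1.90 (SE 0.28).

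The 2 entries come from different chromosomes. MIR1269A is intergenic at chr4:66276824-66276928, plus strand, 606 kb from the ephrin receptor gene EPHA5. MIR1269B lies at chr17:12917268-12917342 on the minus strand. It is antisense to ARHGAP44, a gene of the plus strand, and lies in one of its introns. Despite the separate loci, miR-1269a made up a small and similar share of the reads of both entries: 1.33% (95% exact interval 1.17 to 1.5%) and 1.11% (0.841 to 1.44%) in CAG replicates 1 and 2, against 1.07% (0.775 to 1.45%) and 1.10% (0.770 to 1.52%) in PGK replicates 1 and 2. The intervals overlap in all 4 libraries; they take the counts as whole reads, and rounding of estimated counts is possible. The count of miR-1269a therefore moved with that of miR-1269b, from which it differs by a single base, and the level of miR-1269a is uncertain to the extent that reads were shared between them. Summed to 1 feature, the entries had a log2 fold change of 1.73 (SE 0.18).

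Of these hairpins miR-576 alone had both arms above 100 CPM in every library. MIR576 lies at chr4:109488698-109488795, plus strand, in an intron of SEC24B, which encodes a coat protein of vesicles that leave the endoplasmic reticulum and is transcribed from the same strand. miR-576-3p has been reported to damp the antiviral interferon response. It stood at 593 and 362 CPM in CAG replicates 1 and 2, against 186 and 176 CPM in PGK replicates 1 and 2. Means were 478 ± 163 CPM in CAG cells and 181 ± 7.51 CPM in PGK cells (SD, n = 2 each), a log2 fold change of 1.40 (SE 0.24).

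miR-576-5p stood at 290 and 280 CPM in CAG replicates 1 and 2, against 162 and 106 CPM in PGK replicates 1 and 2. Means were 285 ± 7.07 CPM in CAG cells and 134 ± 39.7 CPM in PGK cells (SD, n = 2 each), a log2 fold change of 1.09 (SE 0.22), the smallest among the tested members. The arms were unsteady in different groups: the CAG replicates differed 1.64-fold in miR-576-3p and the PGK replicates 1.53-fold in miR-576-5p. Among the 436 tested miRNAs that averaged 10 CPM or more, 9.63% had a wider gap between CAG replicates and 8.26% a wider gap between PGK replicates. The other 6 members in that set stayed within 1.16-fold between CAG and 1.21-fold between PGK replicates.

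The 5p arm made up 32.9% (95% exact interval 32.0 to 33.7%) and 43.6% (41.4 to 45.8%) of miR-576 reads in CAG replicates 1 and 2, against 46.5% (44.6 to 48.4%) and 37.6% (35.5 to 39.8%) in PGK replicates 1 and 2. The groups overlapped, and replicates of the same group differed beyond counting error. The mean difference of −3.80 percentage points became 1.57 without CAG replicate 1 and 0.643 without PGK replicate 1, so no direction of arm use can be given. Over 178 pairs of arms that were both tested, the fold changes of the arms differed by a median of 0.25 on the log2 scale; for miR-576 the difference, 5p minus 3p, was −0.31, and 77 pairs were further apart.

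**Figure D2:**
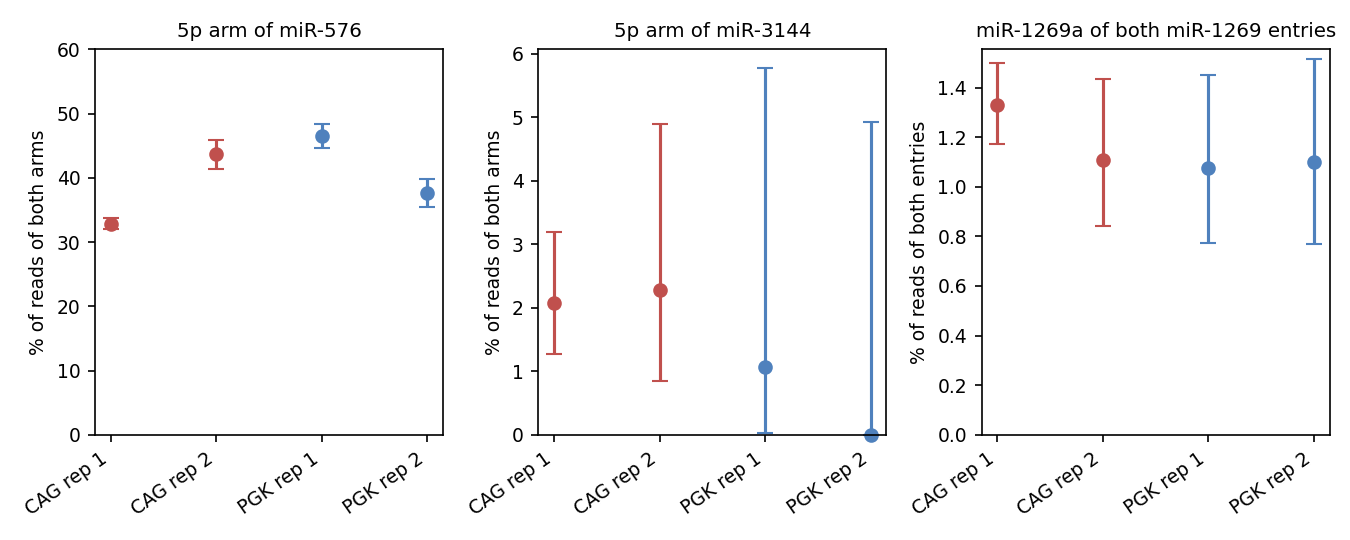
Share of reads in each library, in percent, for the 5p arm among both arms of miR-576 (left) and of miR-3144 (middle) and for miR-1269a among both miR-1269 entries (right). Bars are 95% exact binomial intervals and each vertical axis starts at 0. The miR-576 shares of the groups interleave, between 32.9% and 46.5%, and the miR-1269a shares lie between 1.07% and 1.33%.

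The order of the log2 fold changes was miR-651-5p, miR-3144-5p, miR-3144-3p, miR-6500-3p, miR-1269a, miR-1269b, miR-4421, miR-576-3p and miR-576-5p. The first pair in this order, and from miR-6500-3p down each miRNA and the next, differed by less than the larger of their standard errors, apart from miR-576-3p and miR-576-5p, which differed by 0.31 with standard errors of 0.24 and 0.22. Leaving out 1 library leaves a single library in its group. Without either PGK replicate, calls became fewer over all tested miRNAs as well as among the members. A call lost there therefore does not set a member apart. miR-3144-5p did not pass the filter without CAG replicate 1. No member changed direction in the fits that tested it. miR-3144-5p moved most, to 6.68 without PGK replicate 1, where the remaining PGK library had 0 reads and the fitted value depends on the small prior count of edgeR, and to 3.56 without PGK replicate 2. miR-576-3p had 1.01 without CAG replicate 1 and 1.72 without CAG replicate 2.

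**Figure D3:**
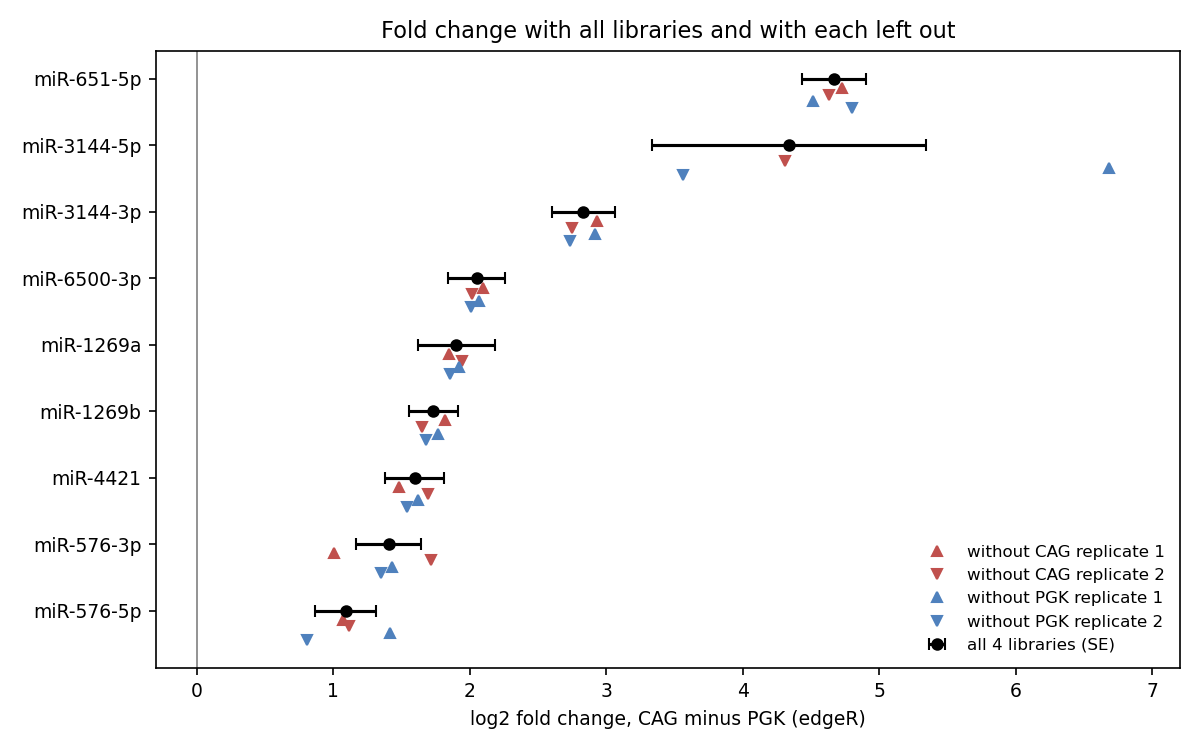
Log2 fold change, CAG minus PGK, of the 9 tested members with all 4 libraries (black, bars are SE) and with each library left out (triangles). All values lie right of 0; miR-651-5p stays between 4.51 and 4.80, and miR-3144-5p spreads from 3.56 to 6.68.

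Seed families gave the members' counts again. The deposited family of each seed had exactly the count of its member for miR-651-5p, miR-651-3p, both miR-3144 arms, miR-6500-3p and both miR-576 arms, so in the table these seeds had no other miRNA with reads. All 8 tested families with a member were higher in CAG cells, where 5.76% of 642 tested families were higher and 10.4% changed in either direction, which follows from the members' own counts. The family UGGACUG, the sum of miR-1269a and miR-1269b within 1 read per library, had 19127 and 5137 reads in CAG replicates 1 and 2, against 3910 and 3277 reads in PGK replicates 1 and 2. The family CCUGUCU also held miR-5699-3p, which shares the seed of miR-4421 and was not chosen for its values. miR-5699-3p had 66 and 15 reads in CAG replicates 1 and 2, against 24 and 25 reads in PGK replicates 1 and 2. Its mean was 4.99 ± 0.186 CPM in CAG cells and 3.24 ± 0.341 CPM in PGK cells (SD, n = 2 each), and its log2 fold change of 0.64 (SE 0.34) was not called (edgeR adjusted p = 0.257).

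The loci were then compared with the miRNAs around them, which the choice of members did not use. Within 5 Mb of a member hairpin there were 9 other tested miRNAs, of which 1 was called higher and 0 lower (11.1%). Of all tested miRNAs 14.2% were called in either direction. An unadjusted p under 0.05 (edgeR) was found for 2 of the 9, in opposite directions. These were the called one and one near MIR1269B that was lower in CAG cells (log2 fold change −0.65, SE 0.26) and not called. Near MIR3144, miR-548b-5p, 946 kb away, stood at 83.3 and 73.9 CPM in CAG replicates 1 and 2, against 75.3 and 76.3 CPM in PGK replicates 1 and 2 (log2 fold change 0.06, SE 0.19), and miR-548b-3p had a log2 fold change of −0.06 (SE 0.32). The level of miR-548b-5p thus lay within the same range as that of miR-3144-3p in CAG cells, and its groups overlapped. Near MIR1269B, miR-744-5p, 835 kb away, stood at 2590 and 3060 CPM in CAG replicates 1 and 2, against 2706 and 2741 CPM in PGK replicates 1 and 2 (log2 fold change 0.05, SE 0.17). On the same side miR-744-3p had 0.10 (SE 0.22), and on the other side miR-1288-3p had 0.52 (SE 0.29); neither was called (edgeR adjusted p = 0.815 and 0.269).

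miR-4781-3p, 2994 kb from MIR6500 and at 2.33 and 2.59 CPM in CAG replicates 1 and 2, against 3.50 and 2.23 CPM in PGK replicates 1 and 2, had a log2 fold change of −0.27 (SE 0.43) and was not called. The called neighbour was miR-1243, 3618 kb from MIR576. miR-1243 passed the low-count filter only through the CAG libraries, where it was high, so its call is given as a description. It had 40 and 12 reads in CAG replicates 1 and 2, against 10 and 3 reads in PGK replicates 1 and 2, a log2 fold change of 1.93 (SE 0.54; edgeR adjusted p = 0.0382), and was higher in both CAG libraries than in both PGK libraries. The call was lost without PGK replicate 1 (log2 fold change 2.93, edgeR adjusted p = 0.101), without PGK replicate 2 (1.40, 0.264) and with the replicate number as a block. No other tested miRNA lay within 5 Mb of MIR651 or MIR1269A.

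**Figure D4:**
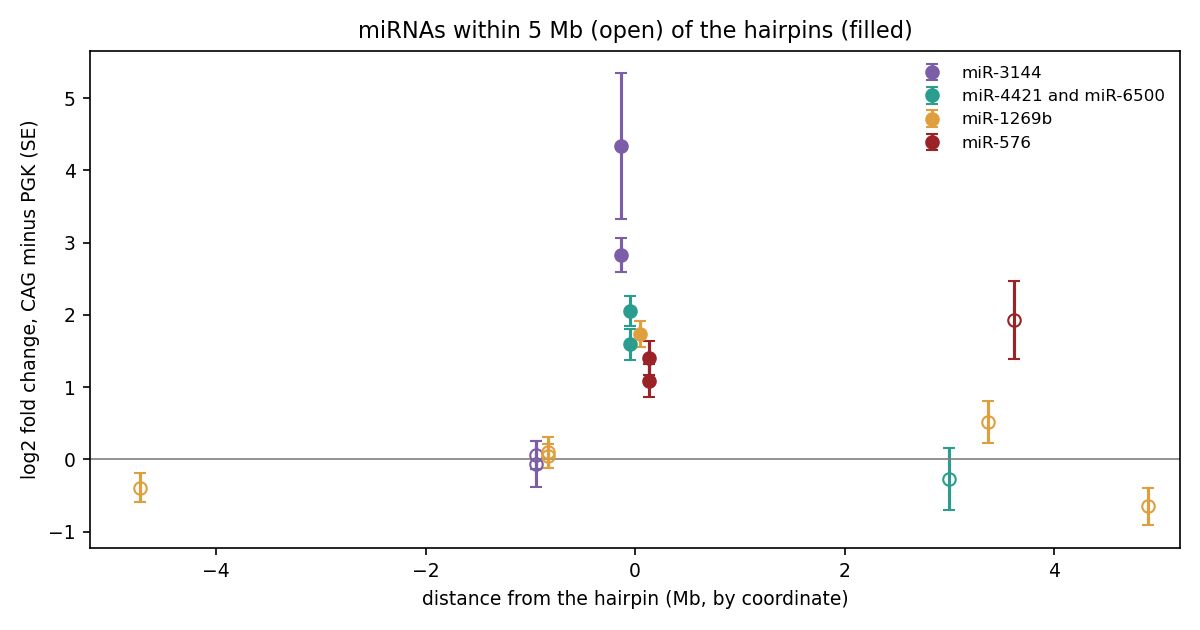
Log2 fold change, CAG minus PGK, with SE, against the distance from the hairpin in Mb. Filled points, set side by side around distance 0, are members, and open points are other tested miRNAs within 5 Mb. Each colour is 1 locus. miR-651-5p and miR-1269a, with no other tested miRNA within 5 Mb, are not drawn. The open points lie between −0.65 and 0.52 except miR-1243 at 1.93, and the filled points between 1.09 and 4.34.

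By the distance of their centred log2 CPM over the 4 libraries (pseudocount 0.5 CPM), the non-members most like miR-651-5p were miR-767-3p (0.418) and miR-105-3p (1.29), of which miR-105-3p stood at 34.2 and 26.3 CPM in CAG replicates 1 and 2. Over both PGK libraries miR-105-3p had 1 read and miR-767-3p 0. For miR-3144-3p the most alike were miR-3613-5p (0.646) and miR-3613-3p (0.721). miR-6500-3p was closest to miR-218-5p (0.219), followed by miR-3613-5p (0.394). miR-181a-2-3p (0.210) and miR-199b-5p (0.239) were the most like miR-4421. miR-1269a was nearest to miR-218-5p (0.223) and miR-1266-5p (0.293), miR-1269b to miR-181a-2-3p (0.339) and miR-181b-2-3p (0.340), and miR-576-3p to miR-943 (0.258) and miR-548ar-3p (0.340). Between members the closest pair of these was miR-1269a and miR-1269b (0.197). The pseudocount sets much of the distance of miRNAs with few reads, such as miR-767-3p and miR-181b-2-3p, so a small distance does not mean a like fold change in the fit.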

How the data were processed

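The authors deposited whole-number counts of reads for 2656 mature miRNAs and 2094 seed families, 1 column per library. Family totals can differ from the sum of their members by 1 read, so these may be rounded estimates, and the exact intervals take them as whole reads; 0 sample columns were left unused. Per the labels' protocols, small RNA libraries came from Trizol-extracted total RNA and the NEBNext kit. Adapter ligation favours some sequences, so comparing 1 miRNA between libraries is safer than comparing different miRNAs. The trimming, aligner, counting rule and genome build were not given in the sources used here. Groups and replicate numbers came from the titles.

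The whole tables were fitted with edgeR 4.0.16 in R 4.3.3 (robust quasi-likelihood test, TMM factors, minimum count 10 and total 15 by group, Benjamini-Hochberg adjustment, two-sided), checked on simulated counts; 773 miRNAs and 642 families were tested. SE is the fold change over the root of F. Alternatives were 3 scalings, 2 filters, DESeq2 1.42.0, limma-voom (limma 3.58.1), the older edgeR method, a replicate block, each library left out and a threshold of 0.01. Shares have exact 95% binomial intervals (scipy 1.17.1). Positions and sequences come from RefSeq (GRCh38.p14) and genes from GENCODE release 29, where all 7 hairpins have the same position.

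Replicates are not copies of the same reads: the chi-square per degree of freedom was 152 for the CAG pair and 77.3 for the PGK pair. The members and lists, and the 5 Mb window, were chosen with earlier results of these data known. Named miRNAs are the members and their other arms, the nearest tested neighbour on each side within 5 Mb, tested miRNAs sharing a member's seed, and the 2 most alike by distance for 7 members.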

Additional observations from a re-analysis of the deposited data

How the results depend on the processing

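All 9 tested members kept their direction under the alternatives that tested them, and 4 of them, miR-651-5p, miR-3144-3p, miR-6500-3p and miR-1269b, kept the call in each; these fits share libraries with the one reported. The count of members called was 9 with all libraries and 4 to 9 with 1 library left out. Counts over all miRNAs ran from 10 to 84 higher and from 6 to 78 lower with 1 library left out. They were 39 higher with a minimum of 10 CPM in 2 libraries, 40 higher and 23 lower with the replicate block, and 32 higher and 17 lower at a threshold of 0.01. Fewer miRNAs are tested under that filter. The threshold of 0.01 is a stricter cut-off on the same fit and can only lower the counts. Otherwise the cause was not tested. Families called numbered 67, against 14 to 60 with 1 library left out, 21 with the block and 33 at 0.01; under the other settings they numbered 52 to 95, with 95 by RLE scaling, 93 by library size and 73 by DESeq2. Neighbours called were 1 of 9 within 5 Mb, 0 of 4 within 1 Mb and 5 of 49 within 20 Mb. Within 5 Mb they were 0 with the stricter filter, with DESeq2, with the block and at 0.01. With 1 library left out they moved both ways, to more without CAG replicate 1 and to fewer without either PGK replicate. The called neighbour, miR-1243, had no adjusted p under that filter or with DESeq2, so those settings did not test its call. The labels pair same-numbered replicates by nothing beyond the number. The correlation of their deviations was −0.016, which cannot exclude a shared batch, and the block cost none of the members its call. The 5p share, CAG minus PGK, ran from −0.159 to 0 percentage points for miR-651, 1.12 to 2.18 for miR-3144 and −9.18 to 1.57 for miR-576 with 1 library left out. Uncalled neighbours near 0 changed sign when 1 library was left out, with log2 fold changes of −0.042 to 0.227 for miR-744-3p, −0.067 to 0.175 for miR-744-5p, −0.149 to 0.00098 for miR-548b-3p, −0.030 to 0.142 for miR-548b-5p and −0.550 to 0.095 for miR-4781-3p. Depth limits miR-3144-5p and miR-651-3p, for which 1 read in the shallowest library is 0.324 CPM.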

Other observations

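In GENCODE release 29, 4 of the 7 hairpins (57.1%) overlap no gene other than a miRNA gene on either strand: MIR3144, MIR6500, MIR4421 and MIR1269A. Among 409 hairpins that are the single RefSeq source of a tested miRNA, 48 (11.7%) do. MIR6500 and MIR4421 are neighbours and count as 1 locus in effect, and the members were picked by name, so this is a description of the set and no test was made.

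The family of the seed UGGACUG had 1 read more than miR-1269a and miR-1269b together in CAG replicate 1 and 1 read fewer in PGK replicate 2, and the same number in the other libraries. The families of the other members' seeds that held no further miRNA matched their member without any difference.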
